A study of Homo sapiens with 2 samples.

Results

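Nucleotide synthesis and folate genes were examined as a group of 39 genes, of 43317 gene names on the array. The members were listed by symbol as enzymes of purine, pyrimidine, deoxynucleotide and folate metabolism, and a probe belonged to the group where its gene name equalled a listed symbol. All 39 symbols had at least 1 probe, with 51 probes on 60 spots in all. The ADSS probe was listed under that older symbol, which is now ADSS2.

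Cells build nucleotides from amino acids, carbon dioxide and ribose phosphate, or salvage them from free bases and nucleosides. The de novo purine route ends in inosine monophosphate (IMP), from which AMP and GMP branch, and the de novo pyrimidine route ends in UMP, from which CTP is made. Folate enzymes carry the carbon units that purines and thymidylate need, and ribonucleotide reductase turns ribonucleotides into the deoxynucleotides (dNTPs) of DNA. Several of these enzymes are targets of chemotherapy, among them thymidylate synthase in squamous carcinoma.

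Ca9-22 is a line of human oral squamous cell carcinoma (OSCC) cells. The cells received either a lentivirus carrying the full-length cDNA of DLEU1, a long noncoding RNA, or the empty control vector, and the study used the pair to ask how ectopic DLEU1 changes gene expression. Both cultures were grown with 10% serum and kept in blasticidin (6 mg/ml as labelled) for 2 weeks, which leaves a selected population of infected cells, and no label named a clone. Total RNA of each culture (100 ng) was labelled with Cy3 and hybridised to 1 array of 60-base probes, both on 1 slide and in 1 scan. With 1 array per group there was no replicate, so no test was possible, and each difference compares these 2 cultures.

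Levels are given as the log2 signal of a probe minus the 75th percentile of its array, and differences as DLEU1 vector minus control vector on that scale. A level has meaning only against the same probe on the other array. A gene was called lower or higher at 2-fold, which is 1.0 on the log2 scale. The error between spots of the same probe had an SD of 0.0800 for the log2 difference of a spot over 282 replicated probes. Different probes of the same member disagreed more, with a median SD of 0.17 over the 9 members with several detected probes. Both leave out the variation between cultures.

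The DLEU1 probe that was brightest rose from 3.17 with the control vector to 5.91 with the DLEU1 vector, a difference of 2.74, and the other 2 DLEU1 probes, which target another DLEU1 transcript, differed by 0.54 and 0.85. Of 9 epithelial markers, all were detected on both arrays, from KRT18 (-0.93) to KRT14 (2.85). Of 7 mesenchymal markers 5 were detected, from VIM (-0.97) to COL1A1 (3.99), and COL1A2 and COL3A1 were detected on neither array. Of 4 immune markers with a probe 3 were detected, from CD14 (-1.60) to PTPRC (0.45), and CD3E was not. Of 4 endothelial markers CDH5 (-0.59) and VWF (3.70) were detected, and PECAM1 and KDR were not. A strip of the DLEU1 vector array, outlined by its low values, held 130 spots that were well above background with the control vector. Of these 75.4% were at least 2-fold lower, against 12.8% elsewhere, and 1 member probe, that of PAICS, lay there.

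Most of the members were lower with the DLEU1 vector. Of the 38 members detected on both arrays, 23 were at least 2-fold lower and 0 were at least 2-fold higher, and 35 lay below 0. Over all 20246 gene names detected on both arrays, 9.78% were lower and 9.18% higher. Over the 13198 of them that are protein-coding symbols, 11.4% were lower and 9.02% higher. The median difference of the members was -1.10, against -0.07 over all gene names and -0.12 over the protein-coding symbols. The members ranged from -3.24 for RRM2 to 0.45 for CDA, and 6 of them were at least 4-fold lower, against 1.92% of all gene names. PRPS2, one of the enzymes that make phosphoribosyl pyrophosphate, was detected on neither array and has no difference. The scaling moved all genes together. Scaled on the spike-in controls, 23.5% of all gene names were lower and 4.63% higher, with a median of -0.52, and scaled on the median 12.1% were lower and 7.73% higher. The median of the members minus that of all gene names was -1.03 with each of these scalings, which cannot change it because they shift every gene equally. With quantile normalization and with loess, which can change it, it was -0.97.

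**Figure D1:**
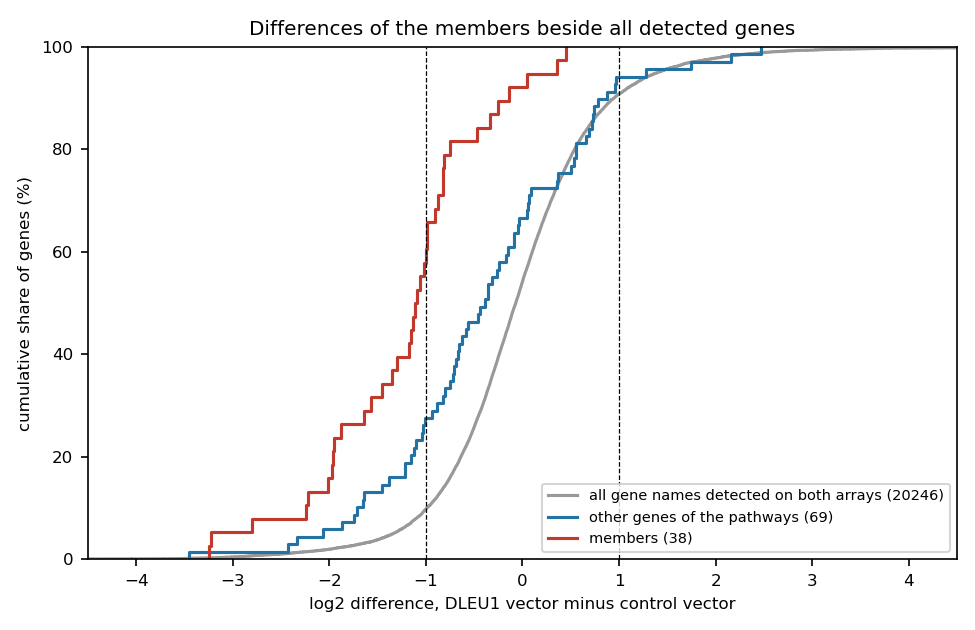
Cumulative share of genes (vertical axis, %) by log2 difference between the DLEU1 vector and the control vector (horizontal axis) for 38 members, 69 other genes of the same pathways and all 20246 gene names detected on both arrays, with dashed lines at 2-fold. The curve of the members lies to the left, with 60.5% of them at least 2-fold lower.

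The largest differences were those of RRM2 and TYMS, both enzymes of DNA precursors. Ribonucleotide reductase consists of the large subunit RRM1 and a small subunit, either RRM2, which cycling cells make, or RRM2B, which the p53 response induces. The level of RRM2 went from 3.08 with the control vector to -0.16 with the DLEU1 vector, 9.46-fold lower. RRM1 went from 5.21 to 3.20, 4.04-fold lower. RRM2B went from 0.34 to 0.08, a difference of -0.26, and its dimmer probe gave -0.57. The catalytic subunit and the small subunit of cycling cells were thus below the 2-fold line and RRM2B was not.

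Thymidylate is made from dUMP by TYMS, which uses a folate cofactor. The level of TYMS went from 7.29 to 4.06, 9.38-fold lower, next to RRM2 in size. DUT, which hydrolyses dUTP to dUMP and keeps uracil out of DNA, went from 7.56 to 6.26 (2.46-fold lower). DTYMK, the kinase that carries thymidylate on toward dTTP, went from 6.40 to 4.15 (4.74-fold lower). The enzymes that supply, make and phosphorylate thymidylate from dUTP onward all lay past the line. DCTPP1, which cleaves dCTP and modified forms of it, went from 6.07 to 4.18 (3.69-fold lower). DCTD, which deaminates dCMP to dUMP, went from 2.35 to 1.88, a difference of -0.47. SAMHD1, which degrades dNTPs, went from 0.22 to -0.12 by its brighter probe, a difference of -0.34. The dimmer SAMHD1 probe gave -1.08, the widest disagreement between probes of a member. In this group 4 of 6 members were lower, with a median of -1.59.

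Deoxynucleoside kinases salvage deoxynucleosides. TK1, the cytosolic thymidine kinase of cells in S phase, went from 8.99 with the control vector to 6.77 with the DLEU1 vector, 4.66-fold lower. DCK, which phosphorylates deoxycytidine, went from 0.83 to -1.12 (3.88-fold lower). TK2, the mitochondrial thymidine kinase, went from -1.40 to -1.05, a difference of 0.36 in the other direction. TK1 and DCK were therefore lower and mitochondrial TK2 was not.

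**Figure D2:**
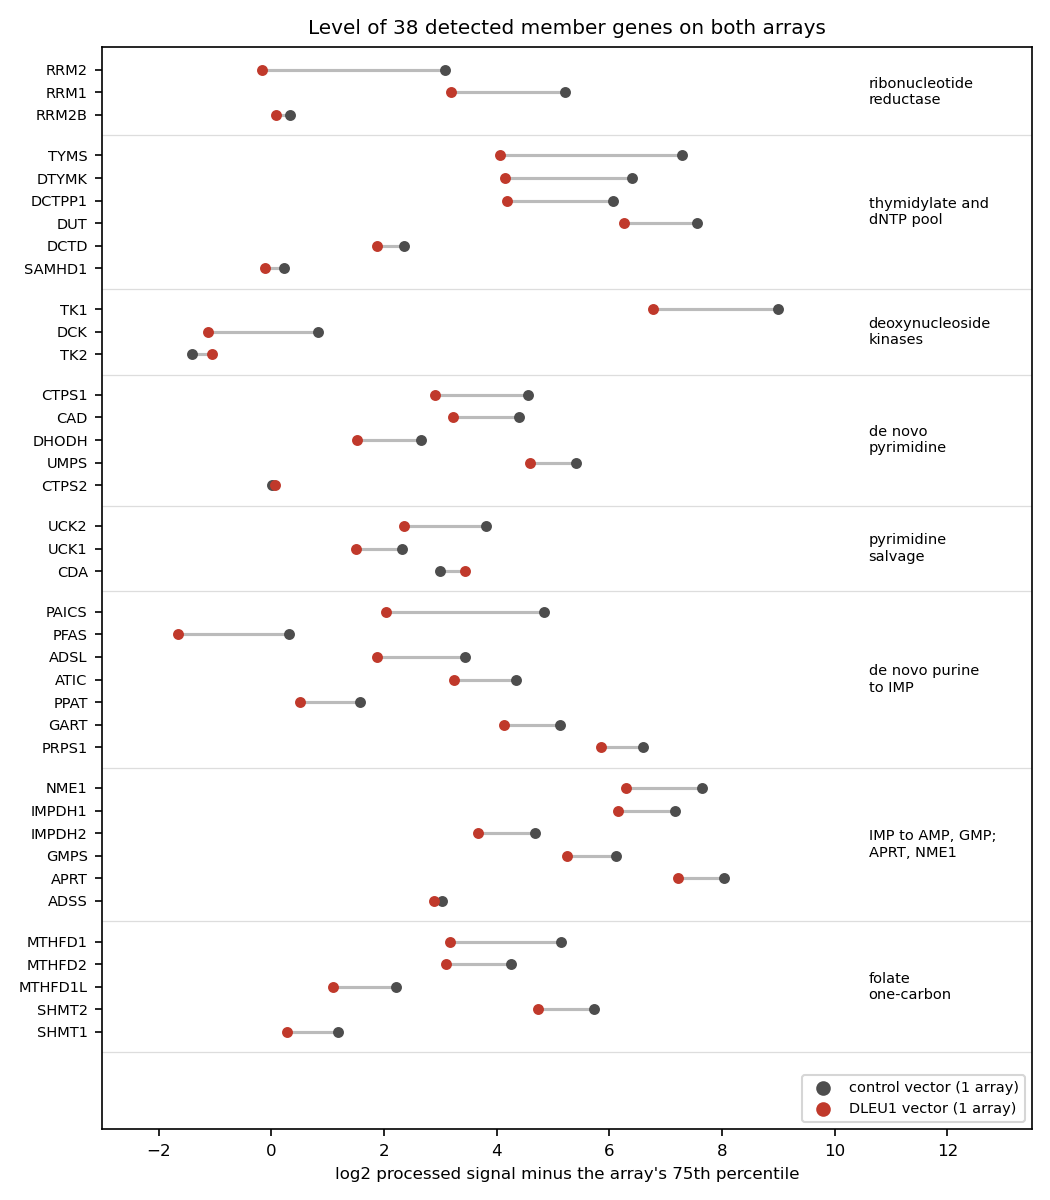
Level of each of the 38 detected members (horizontal axis, log2 processed signal minus the 75th percentile of the array) on the control vector array (grey points) and the DLEU1 vector array (red points), grouped by role. The red point lies to the left for 35 members and to the right for CDA, TK2 and CTPS2, and levels of different genes are not to be compared.

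The opening 30 bases of 4 probes are given here because their targets hold the largest differences and the contrast between both thymidine kinases, with positions on hg19 as deposited.
RRM2 probe A_24_P225616, chr2:10270487-10270546, plus strand: ggttcctacaagttgttcattctagttttg
TYMS probe A_23_P50096, chr18:673276-673335, plus strand: acatgtatgtgcatttcaatcccacgtact
TK1 probe A_23_P107421, chr17:76170193-76170252, minus strand: aggggcttatctcttcaagtgtggagaggg
TK2 probe A_33_P3392537, chr16:66543352-66543411, minus strand: atttcagcttttatttaagctttttgacag
The TK1 and TK2 probes shared no run longer than 5 bases, and those of RRM2 and RRM2B none longer than 6.

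Of the 39 members, 35 had a RefSeq promoter window (GRCh38.p14, 250 bases before to 50 after a start), with 51 windows in all. RRM2B, ADSL, IMPDH2 and SHMT2 had none. The windows were searched on both strands for letters that transcription factors of the cell cycle and of growth are known to read. For E2F these were TTTCCCGC, TTTGGCGC and TTTCGCGC. An E2F word was in 11.8% of the member windows and in 2.74% of all 35116 windows, which include those of genes not detected here. By gene it was in 17.1% of the 35 members and 3.30% of all 27305 genes with a window. Its carriers were TYMS, DUT, DCK, GART, CDA and PRPS2. TYMS, DUT and DCK were lower, GART (-0.99) lay at the line, CDA (0.45) was above 0 and PRPS2 was not detected. Stretches of 4 of these promoters are shown with the E2F word in capitals.
TYMS promoter, chr18:657553-657672, plus strand: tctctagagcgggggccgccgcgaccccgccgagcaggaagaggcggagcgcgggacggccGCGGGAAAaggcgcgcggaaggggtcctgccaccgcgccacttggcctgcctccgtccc
DUT promoter, chr15:48332097-48332216, plus strand: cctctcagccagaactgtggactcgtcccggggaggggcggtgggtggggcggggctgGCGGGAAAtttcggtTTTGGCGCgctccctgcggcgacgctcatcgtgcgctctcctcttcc
DCK promoter, chr4:70993559-70993678, plus strand: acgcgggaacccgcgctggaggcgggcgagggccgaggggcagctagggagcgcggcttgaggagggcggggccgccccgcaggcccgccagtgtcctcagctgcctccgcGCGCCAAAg
CDA promoter, chr1:20588997-20589116, plus strand: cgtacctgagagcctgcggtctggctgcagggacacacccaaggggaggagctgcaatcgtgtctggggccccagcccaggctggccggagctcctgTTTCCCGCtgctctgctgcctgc
The word began 39 bases before the start in TYMS, 42 and 27 before it in DUT, 3 before it in CDA and at base 22 after it in DCK. Of the 5 detected carriers 3 were lower, and of the 29 detected members without the word 18 were lower. Over all gene names detected on both arrays that had a window, 22.5% of the 555 with the word and 10.7% of the 10244 without it were lower.

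The CCAAT box was searched as the letters CCAAT. It was in 39.2% of the member windows and 34.6% of all windows, and by gene in 42.9% of members against 39.7%. Of its 15 detected carriers 11 were lower, against 10 of 19 without it. Over all gene names with a window 12.9% of 4580 carriers and 10.1% of 6219 others were lower. RRM2 and TK1 carried several copies close to their starts, shown in capitals, which read ATTGG where the box lies on the other strand.
RRM2 promoter, chr2:10122589-10122758, plus strand: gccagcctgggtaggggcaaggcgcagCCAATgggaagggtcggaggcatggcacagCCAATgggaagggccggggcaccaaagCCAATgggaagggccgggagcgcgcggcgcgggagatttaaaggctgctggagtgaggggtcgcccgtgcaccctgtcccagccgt
TK1 promoter, chr17:78187033-78187152, minus strand: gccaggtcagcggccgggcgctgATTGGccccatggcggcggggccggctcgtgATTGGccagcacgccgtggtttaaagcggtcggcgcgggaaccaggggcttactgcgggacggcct
In RRM2 the boxes began 123, 93 and 66 bases before the start, and in TK1 77 and 46 bases before it.

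The E-box, read by MYC and related factors, was searched as CACGTG. It was in 21.6% of the member windows and in 7.26% of all windows, and by gene in 25.7% of members against 8.77%. All 9 of its detected carriers were lower (ATIC, DCK, DCTPP1, DHODH, MTHFD1, MTHFD1L, NME1, PAICS and PPAT), with a median of -1.35, against 12 of the 25 other detected members with a window. The PPAT and PAICS windows overlap head to head and share 1 such site, so these carriers are not independent, and the PAICS value is that of the strip named above. That count depended on the scaling. It was 6 of 9 with the percentile over detected probes, where ATIC, MTHFD1L and PPAT fell short of the line, 7 of 9 with loess, without ATIC and PPAT, and 8 of 9 with quantile normalization (without ATIC) and with normexp (without PPAT). Over all gene names with a window 13.9% of 1312 carriers and 10.9% of 9487 others were lower. The promoters of MTHFD1 and DCTPP1 are shown with the E-box in capitals.
MTHFD1 promoter, chr14:64388253-64388372, plus strand: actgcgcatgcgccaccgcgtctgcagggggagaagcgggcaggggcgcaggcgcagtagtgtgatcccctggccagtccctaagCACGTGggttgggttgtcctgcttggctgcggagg
DCTPP1 promoter, chr16:30429781-30429900, minus strand: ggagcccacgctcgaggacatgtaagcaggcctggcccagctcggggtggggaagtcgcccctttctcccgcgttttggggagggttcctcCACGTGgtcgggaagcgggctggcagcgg
The cell-cycle element CHR, searched as TTTGAA and as TTCGAA, was in 13.7% of the member windows and 16.4% of all windows, and 4 of 7 carriers were lower, against 17 of 27 without it. Over all gene names with a window 16.9% of 1681 carriers and 10.2% of 9118 others were lower. These matches describe letters in a window and say nothing of binding.

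De novo pyrimidine synthesis opens with CAD, an enzyme of several activities, and passes through DHODH in the mitochondrion. CAD went from 4.40 with the control vector to 3.23 with the DLEU1 vector, 2.26-fold lower. DHODH went from 2.65 to 1.52 (2.19-fold lower). UMPS, which completes UMP, went from 5.40 to 4.59, a difference of -0.81 short of the line. CTP synthase CTPS1, which proliferating lymphocytes are known to need, went from 4.55 to 2.91 (3.11-fold lower). Its paralog CTPS2 went from 0.02 to 0.07, a difference of 0.05, which is within 1 spot SD of 0. The route thus had 3 of 5 members lower, with a median of -1.13.

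Pyrimidine ribonucleosides are salvaged by uridine-cytidine kinases. UCK2, the form raised in many tumours, went from 3.81 to 2.35 (2.75-fold lower). UCK1 went from 1212 to 666 units of unscaled signal, a scaled log2 difference of -0.83. CDA, which deaminates cytidine and deoxycytidine and inactivates the drug gemcitabine, went from 2.99 up to 3.44, a difference of 0.45. CDA was the highest of the members, yet below 2-fold.

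The de novo purine route starts from the phosphoribosyl pyrophosphate that PRPS1 makes. PRPS1 went from 6.59 to 5.84, a difference of -0.75, and its dimmer detected probe gave -1.07. PPAT, which commits the pathway, went from 1.57 to 0.51 (2.09-fold lower), and GART, which has several activities of the route, from 5.12 to 4.13. The GART difference of -0.99 fell just short of the line, and its dimmer probe gave -1.29. PFAS, also of this route, went from 0.31 to -1.66 (3.90-fold lower), and its unscaled signal with the DLEU1 vector was 74.8. ADSL, which acts here and again on the way to AMP, went from 3.44 to 1.87 (2.97-fold lower). ATIC, which closes the ring to IMP, went from 4.34 to 3.25 (2.14-fold lower).

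PAICS, between PFAS and ADSL in the route, went from 4.84 to 2.04, 6.97-fold lower. Its spot lay in the strip of low spots of the DLEU1 vector array. Among the 10 such spots of the same column within 10 rows of it, 5 were past the 2-fold line, and their median of -1.21 lay in a range of -3.21 to 0.45. The part of the strip in the PAICS value was not tested. Without the spots of the strip 22 of 37 members were lower, with a median of -1.10. All 7 detected enzymes of the route lay below 0 and 5 of them were lower, with a median of -1.10.

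From IMP the route divides. ADSS, which opens the branch to AMP, went from 3.03 to 2.89, a difference of -0.14, within 2 spot SD of 0. IMPDH1 and IMPDH2, which open the branch to GMP, differed by -1.02 and -1.004, from 7.17 to 6.15 and from 4.68 to 3.67. GMPS, which completes GMP, went from 6.13 to 5.25, a difference of -0.87. The enzymes of the GMP branch therefore lay near the line. On the AMP branch ADSS lay near 0, whereas ADSL, which follows it, was lower as given above. APRT, which salvages adenine, went from 8.04 to 7.21 (-0.82). NME1, a nucleoside diphosphate kinase, went from 7.64 to 6.29 (2.55-fold lower). NME2, which is close to NME1 in sequence, differed by -1.01, and an array probe can read a near-identical transcript.

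Folate enzymes work in parallel in the cytosol and the mitochondrion. SHMT1, which transfers a carbon from serine to folate in the cytosol, went from 1.19 to 0.28, a difference of -0.91. SHMT2, its mitochondrial counterpart, went from 5.72 to 4.73, a difference of -0.98. MTHFD1, which interconverts folate forms in the cytosol, went from 5.14 to 3.16 (3.94-fold lower). The dimmer SHMT1 probe gave -1.01, past the line, and SHMT2 fell just short of it. MTHFD2, the mitochondrial dehydrogenase that tumours express, went from 4.25 to 3.10 (2.23-fold lower). Its probe was the only member probe with replicated spots, and its 10 spots gave -1.15 ± 0.0765 (SD), from -1.29 to -1.03, all past the line. These spots share the arrays and the scaling, and MTHFD2 was lower in 11 of 13 processing settings. MTHFD1L, which releases formate from the mitochondrion, went from 2.21 to 1.10 (2.16-fold lower), and its 3 probes ranged from -1.19 to -1.08. The 5 folate enzymes had a median of -1.11, with 3 of them lower, and all but MTHFD1 lay within 2 spot SD of the line.

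Isozymes of the same reaction were compared in 6 pairs. The log2 difference of RRM2 minus that of RRM2B was -2.99, a 7.93-fold contrast. TK1 minus TK2 gave -2.57, a 5.96-fold contrast that rests on the dim TK2 probe, and CTPS1 minus CTPS2 gave -1.69. UCK2 minus UCK1 gave -0.63, with each kinase below 0. In these 4 pairs the first-named isozyme was the lower one, whereas the IMPDH and SHMT pairs were nearly level. Different probes of a single member differed by up to 0.74 (SAMHD1), which is more than the contrast of UCK2 and UCK1. IMPDH2 minus IMPDH1 gave 0.02 and SHMT2 minus SHMT1 gave -0.07. PRPS1 and PRPS2 could not be compared, since PRPS2 was not detected.

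**Figure D3:**
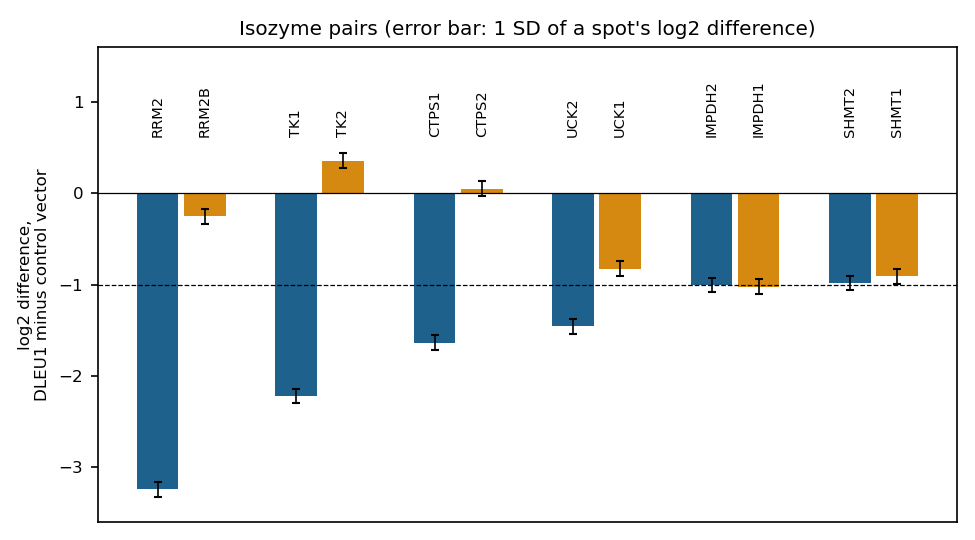
Log2 difference between the DLEU1 vector and the control vector (vertical axis) for 6 isozyme pairs, 1 probe per gene and 1 array per group, with error bars of 1 SD of a spot's log2 difference (0.0800) that hold no variation between cultures. Bars of RRM2, TK1, CTPS1 and UCK2 reach lower than those of their partners, and the IMPDH and SHMT pairs are level.

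Many members lay close to the 2-fold line. A total of 11 members were within 2 spot SD (0.16) of it, and 7 of these were counted as lower, so small shifts in scaling move the count of 23. Measured against the larger SD between probes of a gene (median 0.17), more members lay near the line. Among 9 members with several detected probes, all probes of a gene had the same sign. In 4 of them (GART, PRPS1, SAMHD1 and SHMT1) the probes lay on either side of the line. Across 13 processing settings, 16 members stayed at least 2-fold lower wherever they had a value. These were RRM1, RRM2, TYMS, DUT, DTYMK, DCTPP1, TK1, DCK, DHODH, CTPS1, UCK2, PFAS, PAICS, ADSL, NME1 and MTHFD1. PFAS and PAICS each had a value in 12 of the 13 settings. PFAS had none where a minimum signal was required, and PAICS had none where the strip of low spots was left out. Every PAICS value came from the same spot in that strip, so the part of the strip in these values was not tested.

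**Figure D4:**
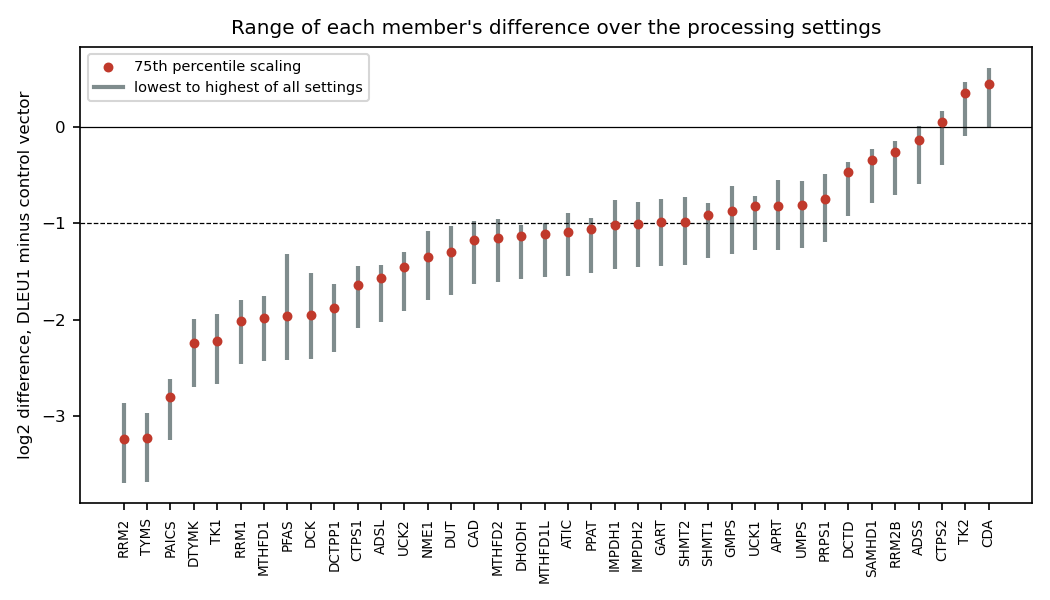
Log2 difference of each detected member (vertical axis) with 75th percentile scaling (red points) and its lowest to highest value over all processing settings (grey lines), with a dashed line at 2-fold lower. RRM2 spans -3.69 to -2.86, and IMPDH1, IMPDH2, GART and SHMT2 are among the members whose grey lines reach both sides of the dashed line.

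Other genes of the same pathways were taken from 4 lists that held 79 genes. Of these, 69 were detected on both arrays, of which 19 (27.5%) were lower and 4 higher around a median of -0.39. GLDC, which cleaves glycine, was detected with the control vector only and was at least 3.58-fold lower with the DLEU1 vector. SLC28A3, a nucleoside carrier, and UPB1, of pyrimidine breakdown, were detected with the DLEU1 vector only, at least 3.10-fold and 1.59-fold higher.

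In the other folate, serine and glycine genes 5 of 21 were lower and 2 higher (median -0.62). GGH, which trims stored folate, differed by -1.87, and SLC19A1, the reduced folate carrier, by -1.46. GCSH of the glycine cleavage system differed by -1.21 and MTRR, which keeps methionine synthase active, by -1.04. Those higher were AMT, also of glycine cleavage (2.16), and the folate receptor FOLR1 (1.74). The folate uptake proteins SLC19A1 and FOLR1 thus went in opposite directions.

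In the other purine genes 6 of 25 were lower and 2 higher, with a median of -0.26. XDH, which makes urate, differed by -2.43. HPRT1, which salvages hypoxanthine and guanine, differed by -1.38, AK6 by -1.10, PNP by -1.03 and NME2 by -1.01. Guanine deaminase GDA (2.47) and ADSSL1 (1.27), a paralog of ADSS, were higher. ADSS and ADSSL1 thus differed by -0.14 and 1.27 for the same reaction.

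In the other pyrimidine genes 2 of 14 were lower and none (0) higher, with a median of -0.17. NT5E, the surface enzyme that forms adenosine from AMP, differed by -3.45, with its probe in the strip of low spots, where the part of the strip was not tested. UPP1, which cleaves uridine, differed by -1.21. Among enzymes that clean the nucleotide pool and carriers of nucleosides and nucleotides, 6 of 9 were lower, with a median of -1.64. NUDT1 (-2.06), which removes oxidised nucleotides, and NUDT5 (-1.12) were lower. So were the nucleoside carrier SLC29A1 (-1.71) and the mitochondrial carrier SLC25A33 (-1.64). These lists are small and their counts are descriptions.

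Markers of proliferation moved the same way as the members. All 21 of them were past the 2-fold line, from MYBL2 (-3.46) to PCNA (-1.95) around a median of -2.76. RRM2 (-3.24) and TYMS (-3.23) lay within that range, as did TK1, DTYMK, RRM1, MTHFD1, PFAS, DCK and PAICS. The other 29 detected members lay above it. RRM1 (-2.01), MTHFD1 (-1.98), PFAS (-1.96) and DCK (-1.96) were less than 1 spot SD below PCNA, the upper edge of the range. The PAICS spot lay in the strip of low spots. Of 18 keratinocyte differentiation markers, 12 were detected on both arrays from KRT10 (0.53) to SPRR3 (9.88), and 10 of these were higher, while 4 more were detected on the DLEU1 vector array alone. The part of either shift in the values of the members was not tested. In such bulk RNA, fewer cells that make a transcript and less of it in each cell cannot be told apart.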

How the data were processed

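Total RNA from 2 Ca9-22 cultures was measured on SurePrint G3 Human GE v3 arrays, 1 per group. The authors extracted spot intensity with Agilent Feature Extraction, version 10.7.3.1 per the file headers, with local background subtraction, spatial and multiplicative detrending, and a surrogate for dim spots. The authors used GeneSpring, and the deposited series values held the same intensity, rounded (at most 0.497% apart). Neither file was normalized between arrays. Probe positions are on hg19.

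Control spots and outlier spots (84 and 103, with 0 among member spots) were dropped, log2 processed signals were averaged by probe, and each array was set relative to the 75th percentile of its non-control probes (7.92 and 7.88). A probe was detected where most of its spots were marked well above background (27731 and 27969 probes, 26279 on both arrays). A gene took its brightest probe detected on both arrays. A gene detected on 1 array got a lower bound of its fold, with the dim side raised to the lowest signal detected there if it lay below. No spot was saturated (0). The number of arrays limits the precision.

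Python 3.11.15, pandas 2.3.3 and limma 3.58.1 (R 4.3.3) were used. Genes named were every member, DLEU1, pathway genes at least 2-fold different (some are counted but not reported here by name), and the extremes of the marker lists. UPB1 and the markers named as not detected fell outside that rule and were named after their values were seen. Members and lists were chosen with earlier results of these data known. Alternatives were 6 other normalizations (median, 75th percentile over detected probes, quantile, loess with a span of 0.3, none and spike-in controls), normexp (offset 50), use of the series values, dropping the filter, requiring a signal of 100, averaging probes, and thresholds of 1.5-fold and 3-fold. Leaving out the strip was added after seeing the data.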

Additional observations from a re-analysis of the deposited data

How the results depend on the processing

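The median difference of the members was -1.10, and it became -1.22 when arrays were scaled by the median, -0.99 when the percentile was taken over detected probes or quantiles were equalised, -0.97 with loess and -1.55 with spike-in scaling. The members counted as lower were 23, between 17 (loess) and 31 (spike-in scaling) at 2-fold under the alternatives, and 31 at 1.5-fold and 11 at 3-fold. Over all gene names 8.16% were lower with loess, 23.5% with spike-in scaling, 22.0% at 1.5-fold and 3.31% at 3-fold. No member was higher (0), except that without a filter on dim probes 1 was, PRPS2, whose probe was detected on neither array. Of 453 values of single members under the alternatives, 270 moved by less than 1 spot SD and 183 moved further. None (0) turned a lower call into a higher one or the reverse. Several members did cross the 2-fold line. IMPDH1, IMPDH2, PPAT and ATIC were lower in 10 of 13 settings, CAD and MTHFD2 in 11 and MTHFD1L in 12. GART was lower in 5, SHMT2 in 3 and SHMT1 in 2. UMPS, UCK1, PRPS1, GMPS and APRT were each lower in 1. In 4 genes below 2-fold the sign changed, 5 times in all. CTPS2 became -0.06 with median scaling and -0.40 with spike-in scaling, ADSS 0.01 with loess, and TK2 -0.10 and CDA -0.003 with spike-in scaling. Median and spike-in scaling add the same amount to every member (-0.11 and -0.45), which by itself turns these small values, and for loess the cause was not tested. The spike-in shift of 0.41 rested on 8 probes that ranged from -0.18 to 0.56. Against the median of all gene names, the members lay at -1.03, at -0.97 with quantile normalization and loess, and at -1.13 without the filter. With normexp, PFAS became -1.31, DCK -1.52 and RRM2 -2.86, the members that it moved most. No paired analysis was possible because each group had 1 array.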
